A study of Mus musculus with 10 samples.

Results

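The ATP-binding cassette (ABC) transporter genes were examined in RNA-sequencing libraries of mouse jejunum. Members were taken by symbol alone, as every gene of subfamilies A to G with a symbol made of Abc, a subfamily letter, a number and an optional last letter. This gave 50 of the 45707 genes listed, all annotated as protein coding. Of the 50, 47 had a read in at least 1 library and 37 passed the filter for testing, which asked for 10 or more normalized counts in 5 or more mice. ABC genes with other symbols, such as Tap1, Tap2 and Cftr, are treated as related genes and not as members.

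The libraries came from 5 Vil-Cre and 5 Vil-Cre:NDI1 mice, male littermates aged 8 to 12 weeks. All 10 carried the Villin-Cre transgene (B6.Cg-Tg(Vil1-cre)1000Gum/J), which drives Cre in intestinal epithelial cells. Vil-Cre:NDI1 mice also carried NDI1, a yeast (Saccharomyces cerevisiae) NADH dehydrogenase made of a single protein, behind a lox-stop-lox sequence at the ROSA26 locus, so that epithelial cells express it. Every mouse was fasted for 16 to 18 h, received water by oral gavage and was sampled 1 h later, with 1 library per mouse. The comparison asks what epithelial NDI1 does to the ABC genes of the jejunum in the absence of drug. The tissue was flushed jejunum and not sorted epithelium, so values come from all cells of the wall. In such bulk samples, fewer cells of a type and less RNA per cell cannot be told apart.

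ABC proteins bind and hydrolyse ATP on paired nucleotide-binding domains and use the energy, in most members, to move a substrate across a membrane. In the small intestine the apical pumps of the B, C and G subfamilies return drugs, conjugates and plant sterols to the lumen, whereas other members export cholesterol to lipoproteins, import fatty acids into peroxisomes or serve mitochondria. The E and F subfamilies have no membrane domain and act in translation.

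Each library held between 10145705 and 12371530 reads on genes. NDI1 had at most 1 read in each Vil-Cre library and 1002 to 2659 reads in the Vil-Cre:NDI1 libraries. Values below are the normalized counts that the authors deposited, and where levels of different genes are ranked, they are given per kb of annotated exon. The 7 enterocyte markers (such as Vil1, Alpi and Sis) summed to 306480 to 439600 normalized counts in 9 libraries and to 216740 in Vil-Cre 5. Alpi, Sis, Lct, Apoa4 and Slc5a1 were each lowest in Vil-Cre 5. Vil1 was lowest in Vil-Cre 3 (35067, against 36241 in Vil-Cre 5) and Fabp2 in Vil-Cre:NDI1 1 (41060, against 56618 in Vil-Cre 5). Vil-Cre 5 also had the highest sum of 3 ileal enterocyte markers (Fabp6, Slc10a2 and Slc51b), 3802 against 669 to 2560 in the other 9. Transcripts known from liver (6 hepatocyte markers, Alb, Ttr, Serpina1a, Fgb, Apoh and Cyp2e1) summed to 1455 in Vil-Cre 1, 579 in Vil-Cre 2, 669 in Vil-Cre 3, 64.7 in Vil-Cre 4 and 818 in Vil-Cre 5, and to 46.1 to 267 in Vil-Cre:NDI1. Cyp2e1 was a large part of several sums, with 430, 448, 270, 13.1 and 96.2 in Vil-Cre 1 to 5. It was above Alb in Vil-Cre 2 and in every Vil-Cre:NDI1 mouse. Cyp2e1 and the adipocyte marker Adipoq were both highest in Vil-Cre 2 and lowest in Vil-Cre:NDI1 1. The adipocyte markers Plin1 and Cidec were highest in other mice. The cell source of Cyp2e1 was not tested. None of the hepatocyte or ileal markers was at 0 in every library.

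Sequences of 2 gene pairs are given first, an intergenic region that Abcg5 and Abcg8 share and a coding stretch that is identical in Abcb1a and Abcb1b. Abcg5 and Abcg8, which encode the paired subunits of the exporter of plant sterols and cholesterol, lie head to head. Abcg5 starts at position 84683011 of chromosome 17 on the minus strand and Abcg8 at position 84683121 on the plus strand. The 109 bases between both starts, chr17:84683012-84683120 of GRCm38.p6 (RefSeq promoter tables), read on the plus strand as follows, with capitals for 3 motif matches.

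Abcg5-Abcg8 intergenic region: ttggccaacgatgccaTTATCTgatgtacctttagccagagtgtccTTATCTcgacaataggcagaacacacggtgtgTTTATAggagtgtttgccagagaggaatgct

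Letter patterns of 6 known promoter elements were searched on both strands. The pattern of GATA factors, AGATAA, matched 2 times on the minus strand, at positions 17 and 47 counted from the 5′ end. It is present at least once in 3.98% of 32851 windows of the same length upstream of a RefSeq start. The core promoter pattern TATAAA matched 1 time on the minus strand, at position 79, and is present in 5.9% of the windows. The nuclear receptor pattern AGGTCA was not found here and is present in 6.39% of the windows. Nor was the pattern of nuclear factor Y, CCAAT, which is present in 20.1%, or that of Sp1, GGGCGG, which is present in 25.6%. The pattern of basic helix-loop-helix factors, CANNTG, was also not found and is present in 37.2%. These are matches of letters and not measured binding sites.

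Abcb1a and Abcb1b encode the mouse forms of P-glycoprotein and lie close together on chromosome 5, at chr5:8660077-8748575 and chr5:8798147-8866315, both on the plus strand. Their coding sequences, 3828 bases each, were 87.7% identical. The transcripts with these coding sequences, untranslated parts included, held 6 shared stretches of at least 100 bases, the length of a read here. The longest shared stretch ran over 338 bases in exons 13 and 14. The 300 bases printed are its main part, starting at coding base 1393 of Abcb1a (chr5:8702423-8702942 with the intron) and 1402 of Abcb1b (chr5:8824743-8825262 with the intron) in GRCm38, with the codons of the ABC signature motif of the first nucleotide-binding domain in capitals.

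Abcb1a and Abcb1b shared coding stretch: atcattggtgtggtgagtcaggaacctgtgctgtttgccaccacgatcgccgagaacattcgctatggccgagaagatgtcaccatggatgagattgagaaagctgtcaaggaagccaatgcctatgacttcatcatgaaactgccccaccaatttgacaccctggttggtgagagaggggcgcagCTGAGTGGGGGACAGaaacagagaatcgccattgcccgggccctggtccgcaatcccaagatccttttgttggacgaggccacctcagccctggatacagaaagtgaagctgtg

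The sequence of a read from within this stretch does not tell both genes apart. Of all 100-base windows in the annotated transcripts, 9.23% of those of Abcb1a and 6.04% of those of Abcb1b were shared with another gene. The split of reads between both genes is therefore uncertain, most of all for Abcb1b, whose counts given below are far lower than those of Abcb1a. Among the other members, only Abcb6 shared over 1% of its windows (45.2%, with the overlapping gene model Gm29253 on the same strand).

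The highest levels per kb belonged to transporters of the apical membrane and of peroxisomes. Over the 10 mice, Abcg5 had 1554 ± 315 normalized counts per kb (SD, n = 10), Abcg8 918 ± 184 and Abcb1a 637 ± 383. Next came Abcc2 with 562 ± 195 and Abcd3 with 501 ± 47.2. These neighbours in the order overlapped over mice. At the other end, Abca15, Abca16 and Abcb5 had no read in any library, which allows up to 3 reads in each. By mean normalized count per gene, 8 members stood at 1000 or more, 19 from 100 to 1000, 11 from 10 to 100 and 9 under 10 with reads.

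**Figure D1:**
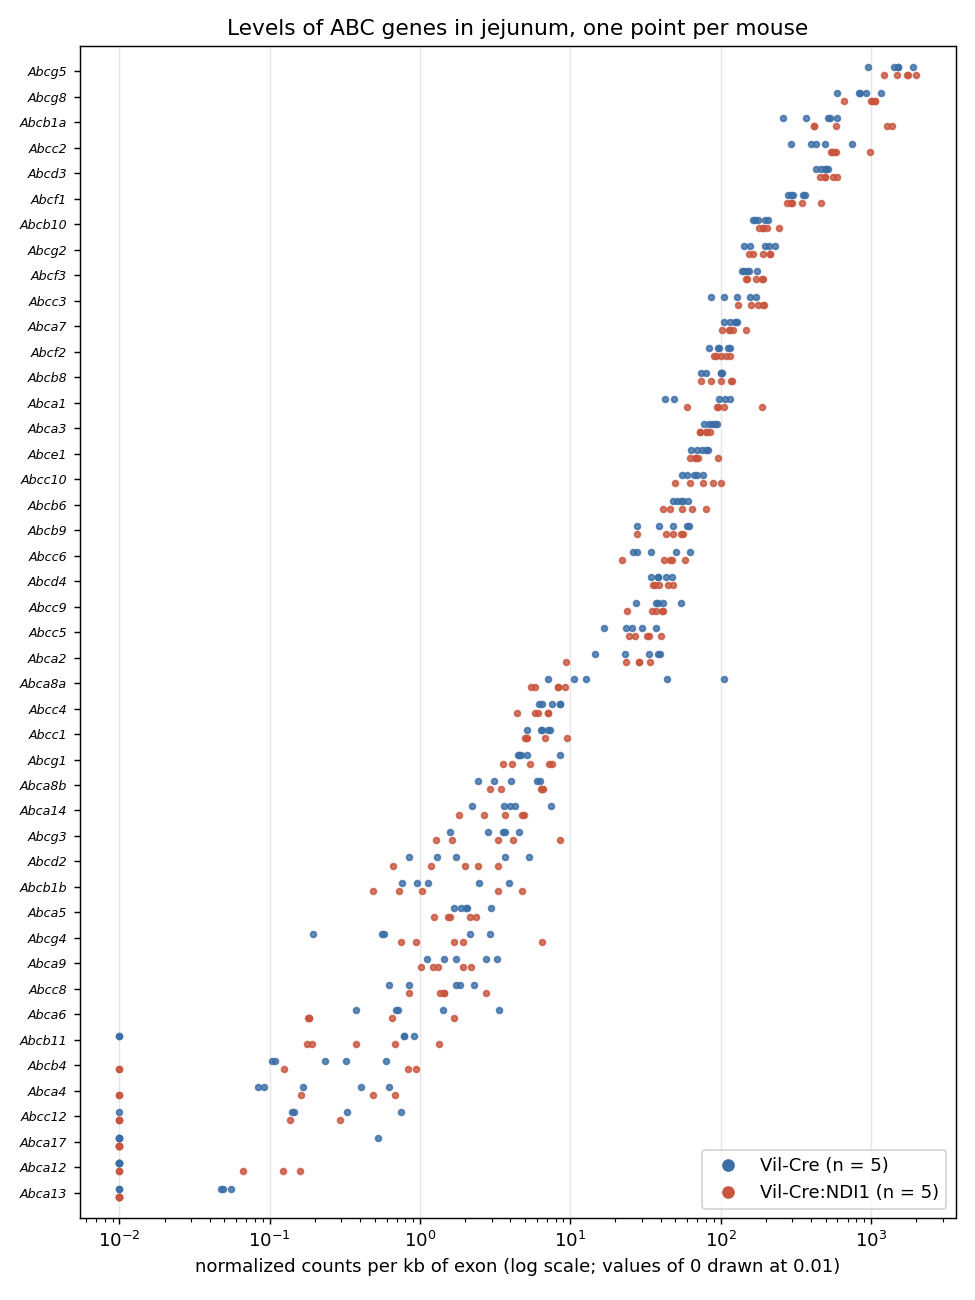
Normalized counts per kb of exon (log axis) of 45 of the 47 ABC genes with reads, with 1 point per mouse (blue, Vil-Cre, n = 5; red, Vil-Cre:NDI1, n = 5) and values of 0 drawn at 0.01. Abcg5, Abcg8 and Abcb1a lead the order, the genotypes overlap in every row, and the separate points of Abca8a are Vil-Cre 1 and Vil-Cre 5.

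By genotype, no member passed the threshold in the tests on all 10 mice. In limma with Benjamini-Hochberg adjustment over 14301 genes, 0 of the 37 tested members had an adjusted p under 0.05 (0.998 to 1.00), beside 1 of all genes (0.00699%), NDI1 itself. At an unadjusted p under 0.05 stood 2 members, beside 606 of all genes (4.24%). Abcc3 was the 1 member higher in Vil-Cre:NDI1 (2.13% of all genes) and Abca8a the 1 lower (2.11%). DESeq2 on recovered reads had 0 members past the threshold beside 24 of all genes (0.168%), and 3 members (Abca8a, Abcb1a and Abcc3) at an unadjusted p under 0.05 beside 6.59% of all genes. In edgeR, 0 members passed beside 1 gene (0.00699%), and 2 (Abca8a and Abcb1a) stood at an unadjusted p under 0.05 beside 4.66%. On the 8 libraries left without Vil-Cre 3 and Vil-Cre 4, DESeq2 had 2 members past the threshold (Abca8a and Abcc2) beside 266 of all genes (1.81%), and edgeR had 0 members beside 1 gene (0.00677%). Of the 37 members, 23 had a log2 fold change above 0 and 14 below, against 51.2% of all genes above 0. The median log2 fold change was 0.025 for the members and 0.0052 for all genes tested. The genotypes did not overlap in 0 of the 47 members with reads, against 0.699% of all genes.

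The intervals, which are not adjusted for the number of genes, show the sizes of change that 5 mice against 5 left possible. For 27 of the 37 members (73.0%) the 95% interval lay within 2-fold either way, against 79.6% of all genes tested. The median SD over the 10 mice was 0.32 on the log2 scale for the members and 0.29 for all genes. The widest spreads among tested members were those of Abca8a, Abcd2 and Abcb1a. With an exact two-sided permutation test of each of the 47 members with reads, 1 (Abca8a) had an unadjusted p under 0.05, against 4.46% of all genes tested.

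**Figure D2:**
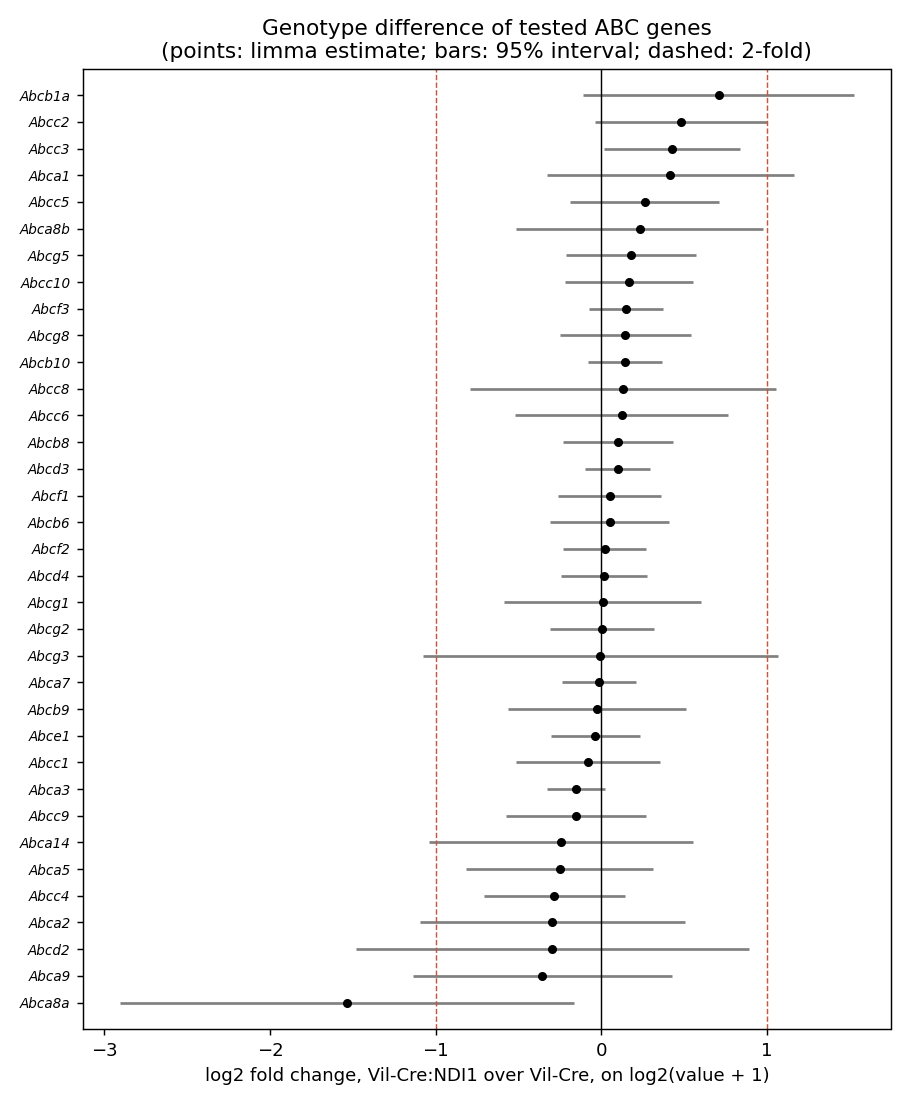
Log2 fold changes of 35 of the 37 tested ABC genes, Vil-Cre:NDI1 over Vil-Cre on log2(value + 1), as limma estimates (points) with 95% intervals (bars) and dashed lines at 2-fold. The intervals of Abca8a and Abcc3 lie on 1 side of 0, no member passed the adjusted threshold, and 25 of the intervals drawn lie within the dashed lines.

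Among the drug and conjugate efflux pumps, 10 members, 8 were tested, 6 were higher and 2 lower in Vil-Cre:NDI1 by estimate, and none passed the threshold. Abcb1a, the main intestinal P-glycoprotein gene, had 2917, 3253, 2848, 1417 and 2020 normalized counts in Vil-Cre 1 to 5. In Vil-Cre:NDI1 1 to 5 it had 2285, 3199, 2307, 7640 and 7002. Mice 4 and 5 of Vil-Cre:NDI1 stood above all others, and the other 3 lay within the range of the controls. The means were 2491 ± 753 (SD, n = 5) and 4486 ± 2623. The log2 fold change was 0.71 (SE 0.37, 95% interval -0.11 to 1.53, limma adjusted p = 0.998), and 0.47 without Vil-Cre:NDI1 4 and 0.50 without Vil-Cre:NDI1 5.

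Those mice, Vil-Cre:NDI1 4 and 5, also had higher ileal marker sums, 2560 and 1532, than the other Vil-Cre:NDI1 mice (669 to 771). Vil-Cre 5 and Vil-Cre 2, with sums of 3802 and 2458, had Abcb1a values of 2020 and 3253, the latter the highest among controls. The part of this marker list in the Abcb1a values was not tested. Abcb1b, the second P-glycoprotein gene, failed the filter. It had 19.6, 7.66, 9.02, 6.07 and 31.1 normalized counts in Vil-Cre and 38.2, 26.4, 5.81, 3.92 and 8.22 in Vil-Cre:NDI1. Its log2 fold change without the filter was -0.058 (SE 0.65, limma adjusted p = 1.00). Vil-Cre:NDI1 4, highest for Abcb1a, was lowest for Abcb1b, and the ratio of the Abcb1a to the Abcb1b count ran from 59.8 to 1950 over mice with a median of 275. This ratio of counts rests on the low and uncertain Abcb1b values.

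Abcc2, which encodes the apical exporter of glucuronide and glutathione conjugates, had 3676, 3422, 6391, 4213 and 2512 normalized counts in Vil-Cre and 4858, 4633, 4723, 5033 and 8486 in Vil-Cre:NDI1. The lowest Vil-Cre:NDI1 mouse stood above 4 of the 5 controls, while Vil-Cre 3 lay above 4 of the 5 Vil-Cre:NDI1 mice. The means were 4043 ± 1450 and 5546 ± 1650 (SD, n = 5 each). The log2 fold change was 0.48 (SE 0.24, 95% interval -0.037 to 1.00, limma adjusted p = 0.998), and 0.32 without Vil-Cre:NDI1 5. In DESeq2 on 8 libraries, without Vil-Cre 3 and Vil-Cre 4, it was 0.79 (adjusted p = 0.0267), where 1.81% of all genes passed. Vil-Cre 3, the highest control, is among the libraries left out there.

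Abcc3 encodes the basolateral counterpart that passes conjugates and bile acids to the blood. It had 597, 894, 986, 732 and 491 normalized counts in Vil-Cre and 1094, 1106, 748, 1018 and 907 in Vil-Cre:NDI1. Vil-Cre:NDI1 1, 2 and 4 stood above all 5 controls and Vil-Cre:NDI1 5 above 4 of them, while Vil-Cre:NDI1 3 lay within the control range. The means were 740 ± 204 and 975 ± 149 (SD, n = 5 each), a log2 fold change of 0.43 (SE 0.19, 95% interval 0.019 to 0.84, limma adjusted p = 0.998). Its control values were lowest in Vil-Cre 5 and Vil-Cre 1. Without both, a choice made after seeing the data, the log2 fold change was 0.16. Leaving out the lowest controls can only lower this estimate, so the fall says nothing further about Abcc3. The summed enterocyte markers were also lowest in Vil-Cre 5, though Vil1 and Fabp2 on their own were not. Vil-Cre 2 had the next lowest sum, 306480, with an Abcc3 value of 894. Vil-Cre:NDI1 4 had the lowest sum of its group, 330780, with an Abcc3 value of 1018. All 7 enterocyte markers had a log2 fold change above 0 (0.11 to 0.39). The part of enterocyte content in these values was not tested.

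Abcg2, the breast cancer resistance protein gene, lay close together in all mice, from 1176 to 1871 normalized counts in Vil-Cre and 1262 to 1740 in Vil-Cre:NDI1. Its log2 fold change was 0.0052 (SE 0.14, 95% interval -0.31 to 0.32, limma adjusted p = 0.999), and it changed sign in 13 alternatives. Abcc4, an exporter of cyclic nucleotides and bile acids, had 39.4 to 54.4 in Vil-Cre and 28.2 to 45.5 in Vil-Cre:NDI1, with a log2 fold change of -0.28 (SE 0.19, limma adjusted p = 0.998) that was -0.18 without Vil-Cre:NDI1 5. Abcc1, Abcc5 and Abcc10, which encode further multidrug resistance proteins, had log2 fold changes of -0.079, 0.26 and 0.17. The bile salt export pump gene Abcb11 and the phospholipid floppase gene Abcb4, both known from the bile canaliculus, had mean normalized counts of 2.69 and 3.06 and were not tested.

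**Figure D3:**
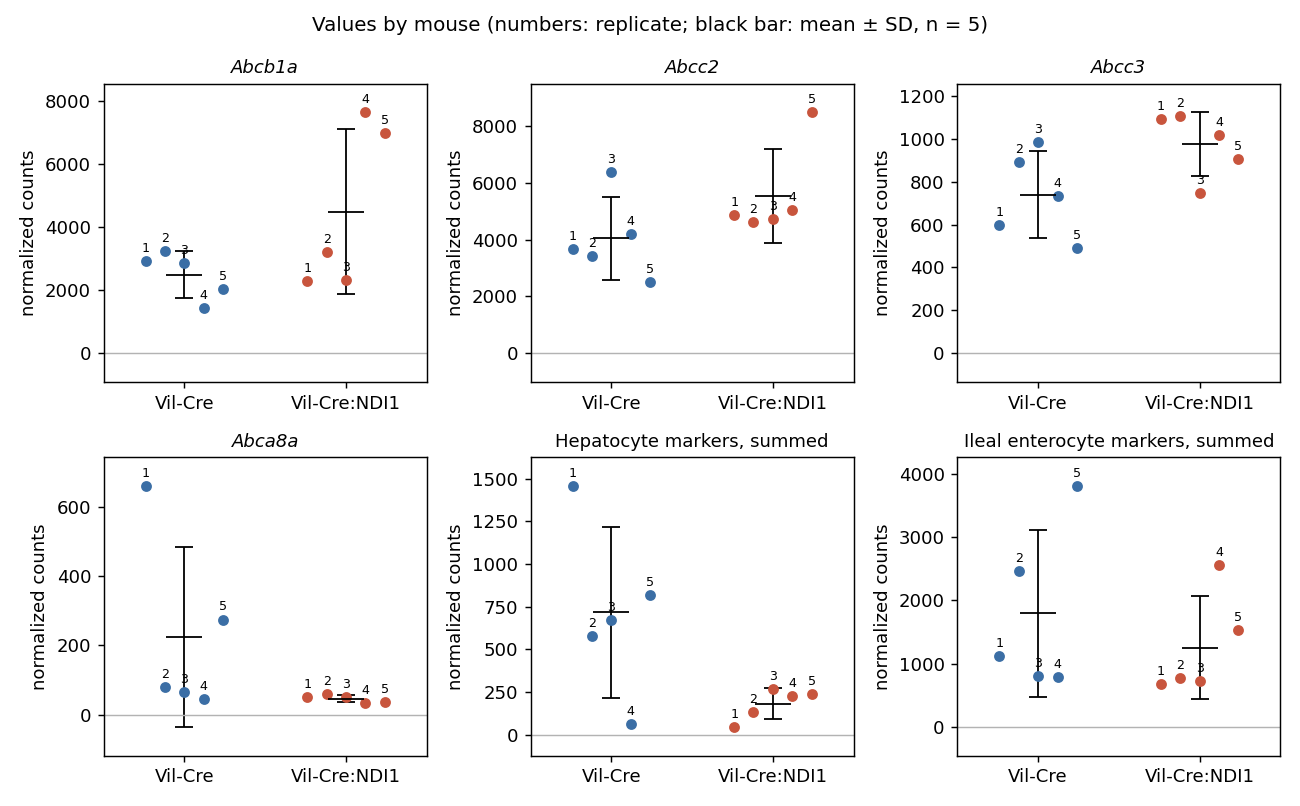
Normalized counts of Abcb1a, Abcc2, Abcc3 and Abca8a and the summed normalized counts of 6 hepatocyte and 3 ileal enterocyte markers, with 1 numbered point per mouse and black bars for mean ± SD (n = 5 per genotype). Abcb1a is high in Vil-Cre:NDI1 4 and 5, and Abca8a and the hepatocyte sum are both highest in Vil-Cre 1, followed by Vil-Cre 5.

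In the group assigned here to sterol efflux, 6 members with Abcg3 among them, 5 were tested. Of these, 4 had a log2 fold change above 0 and Abcg3 did not, and none passed the threshold. Abcg5 had 3855, 4088, 4115, 5209 and 2612 normalized counts in Vil-Cre and 4829, 4048, 4696, 3307 and 5394 in Vil-Cre:NDI1. Abcg8 had 3192, 3128, 3474, 4385 and 2228 in Vil-Cre and 3750, 3790, 3973, 2476 and 4018 in Vil-Cre:NDI1. Both genes were lowest in Vil-Cre 5 and next lowest in Vil-Cre:NDI1 4, and the genotypes overlapped. The log2 fold changes were 0.18 for Abcg5 (SE 0.18, 95% interval -0.21 to 0.57) and 0.15 for Abcg8 (SE 0.18, 95% interval -0.25 to 0.54), each with a limma adjusted p of 0.998. Both values depended on single mice. Without Vil-Cre 5 they were 0.035 and 0.015, without Vil-Cre 4 they were 0.28 and 0.26, without Vil-Cre:NDI1 4 they were 0.28 and 0.28, and without Vil-Cre:NDI1 5 they were 0.10 and 0.10. Without Vil-Cre 1 and Vil-Cre 5 together, a pair chosen after seeing the data, they were -0.016 and -0.031.

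Across mice the pair moved together. Over the 10 mice, Pearson's r of the log2 values was 0.945 (permutation p = 3e-05, adjusted over 4 relations 0.00012) and Spearman's rho 0.867 (permutation p = 0.00229, adjusted 0.00916). Without Vil-Cre 5 and Vil-Cre:NDI1 5, farthest from the median of Abcg5, r was 0.919 (exact permutation p = 0.00211, n = 8). The ratio of the Abcg8 to the Abcg5 count ran from 0.745 to 0.936, with a coefficient of variation of 7.29%. These genes share the region printed above, and 82 bases of exon overlap on opposite strands, where 1 of 3 annotated Abcg8 transcripts starts inside Abcg5. Whether reads were counted by strand is not given in the sources used here, so reads in the overlap are uncertain. The summed enterocyte markers were lowest in Vil-Cre 5, the library lowest for both genes, but not in Vil-Cre:NDI1 4, the next lowest. Both libraries had the highest ileal marker sums, 3802 and 2560. The part of either marker list in the correlation was not tested.

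**Figure D4:**
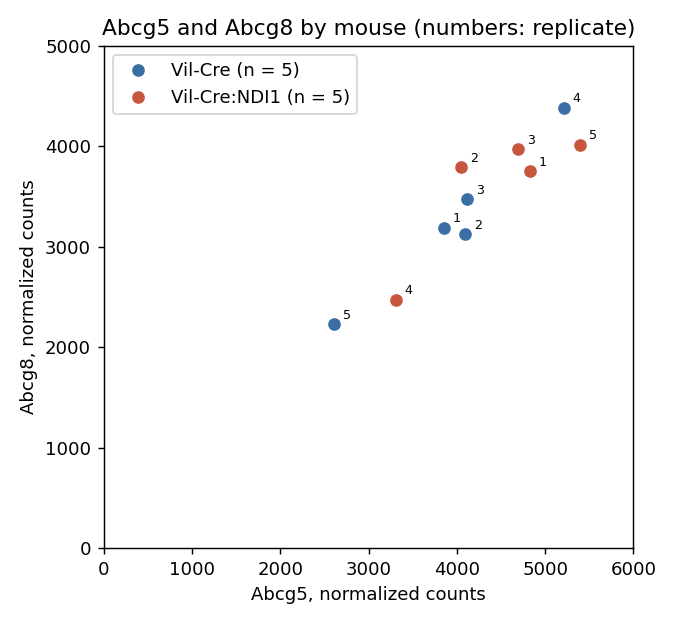
Normalized counts of Abcg5 (horizontal axis) and Abcg8 (vertical axis), with 1 point per mouse labelled by replicate number (blue, Vil-Cre; red, Vil-Cre:NDI1). The points run from Vil-Cre 5 at 2612 and 2228 up to Vil-Cre 4 at 5209 and 4385, with the genotypes intermixed.

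The other 3 relations examined showed no such correlation. Abca1 and Abcg1 are both known targets of the liver X receptors and pass cholesterol to lipoproteins. Their r was -0.215 (permutation p = 0.545, adjusted 0.545) with a rho of -0.115 (permutation p = 0.758), and r was 0.0937 without Vil-Cre 3 and Vil-Cre 5. For Abcb1a with Abcg2, r was 0.224 (permutation p = 0.527, adjusted 0.545) with a rho of 0.321 (permutation p = 0.37), and r was -0.397 without Vil-Cre:NDI1 4 and 5. For Abca8a with 6 summed fibroblast markers, r was 0.365 (permutation p = 0.303, adjusted 0.545) with a rho of 0.345 (permutation p = 0.331), and r was 0.267 without Vil-Cre 1 and 5.

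Abca1 had 1199, 1016, 509, 1104 and 442 normalized counts in Vil-Cre and 624, 975, 1091, 997 and 1943 in Vil-Cre:NDI1. Only Vil-Cre:NDI1 5 lay above the control range, and without it the log2 fold change of 0.42 (SE 0.34, limma adjusted p = 0.998) was 0.20. It was 0.21 without Vil-Cre 5 and 0.26 without Vil-Cre 3. Abcg1 was low in this tissue, with 32.8 to 62.2 in Vil-Cre and 26.1 to 55.2 in Vil-Cre:NDI1 and a log2 fold change of 0.0091 (SE 0.27, limma adjusted p = 0.999) that changed sign in 11 alternatives. Abcg3, a rodent gene, had a log2 fold change of -0.0042, and Abcg4, known from neural sterol export, had 1.01 to 34.0 normalized counts and was not tested.

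Abca8a gave the lowest log2 fold change and the smallest p of all members. It belongs to the A subfamily of lipid transporters and lies in a row with Abca8b, Abca9, Abca6 and Abca5 on chromosome 11 (Abca8a at chr11:110025634-110095978, minus strand, GRCm38). It had 659.7, 79.9, 66.1, 44.5 and 274.9 normalized counts in Vil-Cre 1 to 5 and 52.0, 58.3, 52.3, 34.3 and 36.4 in Vil-Cre:NDI1. Vil-Cre 1 and Vil-Cre 5 stood far above the rest, while Vil-Cre 2 and Vil-Cre 3 lay just above the Vil-Cre:NDI1 mice and Vil-Cre 4 lay among them. The means were 225 ± 260 and 46.6 ± 10.7 (SD, n = 5 each).

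The log2 fold change of Abca8a was -1.53 (SE 0.63, 95% interval -2.91 to -0.16, unadjusted p = 0.0314, limma adjusted p = 0.998), and the exact permutation test gave an unadjusted p of 0.0476. It was -0.96 without Vil-Cre 1 and -0.43 without Vil-Cre 1 and Vil-Cre 5, a pair chosen after seeing the data. Leaving out the highest controls can only raise this estimate. DESeq2 gave -2.27 (adjusted p = 0.22), and -2.86 (adjusted p = 0.0017) on the 8 libraries, where both high mice were 2 of only 3 controls. Vil-Cre 1 and Vil-Cre 5 had the highest hepatocyte sums (1455 and 818). Of the 6 hepatocyte markers, 5 were tested, and all 5 were lower in Vil-Cre:NDI1 by estimate. In limma, 2 of them (Alb, log2 fold change -3.14, and Ttr, -1.03) stood at an unadjusted p under 0.05, beside 4.24% of all genes. None passed the adjusted threshold (0 of 5). The sums overlapped between the genotypes, with 64.7 in Vil-Cre 4 against 46.1 to 267 in Vil-Cre:NDI1. Vil-Cre 2 and Vil-Cre 3, with sums of 579 and 669, had Abca8a values of 79.9 and 66.1. Most of the sum of Vil-Cre 2 was Cyp2e1 (447.6). Its Alb value was 63.5, against 763 in Vil-Cre 1, 557 in Vil-Cre 5 and 294 in Vil-Cre 3. The part of liver transcripts in the Abca8a values was not tested.

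The neighbours of Abca8a did not share its high values. In Vil-Cre 1, Abca8b had 44.9 normalized counts against 18.2 to 49.0 over all mice, Abca9 had 14.0 against 8.20 to 26.3, and Abca5 had 23.4 against 14.1 to 33.9. The log2 fold changes of Abca8b, Abca9 and Abca5 were 0.23, -0.35 and -0.25, and Abca6 was not tested. Of the 15 members in this group of lipid transporters, 8 were tested, 7 of them with a log2 fold change below 0.

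Abca3, known for loading surfactant lipid into lamellar bodies, had 731 to 887 normalized counts in Vil-Cre and 683 to 793 in Vil-Cre:NDI1. Its log2 fold change was -0.15 (SE 0.080, 95% interval -0.33 to 0.026, limma adjusted p = 0.998). Abca7, a phospholipid transporter of many tissues, had 813 ± 86.4 normalized counts over all mice (SD, n = 10) and a log2 fold change of -0.013. Abca2, known from lysosomes and myelin, ran from 78.3 in Vil-Cre:NDI1 4 to 333 in Vil-Cre 3. The retinal Abca4, the keratinocyte gene Abca12 and Abca13 and Abca17 had mean normalized counts of 0.291 to 3.25, while Abca14 had 23.3.

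The peroxisomal and lysosomal D subfamily was led by Abcd3, which imports branched-chain fatty acids and bile acid precursors, with 2835 to 3443 normalized counts in Vil-Cre and 3027 to 3915 in Vil-Cre:NDI1 and a log2 fold change of 0.099 (SE 0.089). Its values overlapped between the genotypes. Abcd2, which imports very long-chain fatty acids, was far lower, with 10.3, 31.7, 22.0, 5.06 and 7.77 in Vil-Cre and 3.92, 11.8, 14.5, 19.6 and 7.04 in Vil-Cre:NDI1, and its wide spread did not follow the genotype. Abcd4, which works in lysosomal cobalamin export, had a log2 fold change of 0.017.

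The mitochondrial members are of interest because NDI1 acts at the mitochondrial inner membrane, and none passed the threshold. Abcb10, which supports haem synthesis, had 790 ± 82.0 normalized counts in Vil-Cre and 875 ± 108 in Vil-Cre:NDI1 (SD, n = 5 each), with a log2 fold change of 0.14 (95% interval -0.080 to 0.37). Abcb8 and the porphyrin transporter gene Abcb6 had 0.10 (95% interval -0.23 to 0.44) and 0.050 (95% interval -0.31 to 0.41), and the interval of each of these 3 genes lay within 2-fold.

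Among the cytosolic members, the ribosome recycling factor gene Abce1 had a log2 fold change of -0.034, and Abcf1, Abcf2 and Abcf3, which act on ribosomes, had 0.052, 0.022 and 0.15. Their intervals all lay within 2-fold. Abcc8 and Abcc9 encode the sulfonylurea receptors, the regulatory subunits of ATP-sensitive potassium channels. Abcc9, the vascular and muscle form, had 315 ± 69.6 normalized counts over all mice (SD, n = 10) and Abcc8, the form of endocrine cells and neurons, had 12.3 ± 5.44. Their log2 fold changes were -0.15 and 0.13. Abcc6, the gene of pseudoxanthoma elasticum, had 0.12, and the lysosomal peptide transporter gene Abcb9 had -0.026.

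Seen by mouse, Vil-Cre 5 had the fewest tested members above their own median over mice (10 of 37) and Vil-Cre:NDI1 5 the most (24 of 37), with 16 to 21 in the other 8 mice. The median log2 deviation of the members was -0.13 in Vil-Cre 5 and 0.19 in Vil-Cre:NDI1 5. The same libraries had the lowest and the highest sum of enterocyte markers, 216740 and 439600. They also had the lowest and the highest total of normalized counts, 10164900 and 12106500, against 10884500 to 11271500 in the other 8. With libraries rescaled to equal totals, the median log2 fold change of the members was -0.038, where the main fit gave 0.025. The part of enterocyte content or of library scaling in the medians by mouse was not tested.

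The other genes of these pathways were read from the same limma fit. They were 65 genes in 9 lists, of which 62 were tested, 0 passed the threshold and 0 had an unadjusted p under 0.05, beside the 4.24% of all genes. Their log2 fold changes ran from -1.20 to 0.50 with a median of 0.057, and 40 were above 0. Among 15 regulators of ABC genes, 11 were above 0, led by Nr1i3 (0.50), the constitutive androstane receptor gene. The pregnane X receptor gene Nr1i2, a known inducer of Abcb1a, had 0.13, the liver X receptor genes Nr1h2 and Nr1h3 0.056 and 0.033, and the bile acid receptor gene Nr1h4 -0.21. Among related ABC genes, the peptide transporters Tap1 and Tap2 had -0.12 and -0.10 and the chloride channel Cftr 0.11. The lowest was the ileal bile acid importer gene Slc10a2 (-1.20, SE 1.61), which ran from 2.94 to 561 normalized counts over mice. DESeq2 on recovered reads of all 10 mice also had 0 of these genes past the threshold.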

How the data were processed

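Per the study's methods, single-end reads were trimmed (trimGalore!), aligned by STAR to a GRCm38 genome that included NDI1, and assigned to genes by Salmon, and the authors then deposited normalized counts, a signal that is not a raw count. The annotation release and counting strand are not given in the sources used here. In the files, every non-zero value was a whole multiple of 1 step per library, taken as the value of 1 read (100% in each library, tolerance 0.01 of a read), so reads were recovered. For Vil-Cre 3 and Vil-Cre 4 that value is nearest to 1 (1.00184 and 1.01109). The multiples could still be told from whole numbers there, as in 508.937 for 508 reads of Abca1 in Vil-Cre 3. Count tests were nevertheless repeated on the other 8 libraries, which leaves out 2 controls. Replicates were not duplicates of each other (chi-square of 13.06 to 62.85 per gene), and none was merged. Replicate numbers did not pair the mice (correlations of deviations -0.116 to 0.136).

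The main test was limma 3.58.1 (R 4.3.3) on log2(value + 1) with a variance trend, two-sided, with Benjamini-Hochberg adjustment over 14301 genes, which understates changes of low genes. Genes with at least 10 in at least 5 mice were kept (with mice left out, at least as many as in the smaller group). DESeq2 1.42.0 and edgeR 4.0.16 on recovered reads were alternatives. Permutation tests were exact over 252 assignments, with a smallest p of 0.00794. Scripts were tested on simulated data. Each library was taken as 1 mouse, and p-values measure the spread between these mice. Floors cover counting error only.

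Exons, coordinates and shared sequence came from GENCODE M21 (GRCm38), which held all 50 members, and RefSeq promoters (GRCm38.p6) matched 38. The genes given full statistics were 10 efflux genes (Abcb1a, Abcb1b, Abcg2, Abcc2, Abcc3, Abcc4, Abca1, Abcg1, Abcg5, Abcg8) and the 3 others with the smallest p, and the 3 highest per kb and the 3 with the largest SD were given by mouse. Single values of 2 members, 1 of them among the 3 smallest p, are not reported here. Members and lists were chosen with earlier results of these data known. Frda, Fdx2 and Gcn1 were not found by symbol.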

Additional observations from a re-analysis of the deposited data

Results flagged for a closer look

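Each of the 37 tested members and Abcb1b in each genotype, and NDI1 in Vil-Cre:NDI1, were examined for a mouse far from its group (gap to the nearest mouse divided by the range, critical value 0.71 for 5 mice). This gave 5 of 77 groups, against 3.85 that chance gives at about 1 in 20. Abca5 in Vil-Cre 2 had 33.92 normalized counts, above 19.21 to 23.36 in the other controls. Abcc2 in Vil-Cre:NDI1 5 had 8486, above 4633 to 5033 in the rest of its group. Abce1 in Vil-Cre:NDI1 4 had 573.9, above 375.6 to 423.5. Abcg1 in Vil-Cre 5 had 62.16, above 32.83 to 37.41, in the library with the highest ileal marker sum. Abcg8 in Vil-Cre:NDI1 4 had 2476, below 3750 to 4018, and Abcg5 was lowest of its group in the same mouse. The values of Abca8a in Vil-Cre 1 and of Abcb1a in Vil-Cre:NDI1 4 and 5 were not among these 5. Because the rule uses the gap to the nearest mouse, high mice of the same group can hide each other. Abca8a was also high in Vil-Cre 5, so the rule cannot tell whether these values are unusual.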

How the results depend on the processing

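Under the 26 other settings, the count of ABC genes past the threshold was 0 except in DESeq2 on 8 libraries, where it was 2 (Abca8a and Abcc2). The count over all genes was 1, and 2 with a filter of at least 50, 2 with array weights, 24 with DESeq2, 266 with DESeq2 on 8 libraries and 1 to 3 with a mouse left out (3 without Vil-Cre:NDI1 5, 2 without Vil-Cre:NDI1 1 or 2). Related genes past the threshold numbered 1 in DESeq2 on 8 libraries (B2m, log2 fold change 0.31, adjusted p = 0.0306). Members at an exact permutation p under 0.05 numbered 2 with libraries rescaled to equal totals and 0 to 4 with a mouse left out (0 without Vil-Cre 1, Vil-Cre:NDI1 4 or Vil-Cre:NDI1 5, 4 without Vil-Cre 3, 2 without Vil-Cre 4 or Vil-Cre:NDI1 3). With the replicate number as a block, 1 gene and 0 members passed, and the block changed no other call.

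The correlation of Abca1 with Abcg1 was 0.0937 without both farthest mice and -0.66 (without Vil-Cre:NDI1 5, exact permutation p = 0.0492, n = 9) to 0.18 with a mouse left out, and that of Abcb1a with Abcg2 was -0.397 without both farthest. The log2 fold change of Abcg2 was -0.057 with rescaled totals, -0.0062 with TMM, -0.029 with array weights, -0.0047 with DESeq2, -0.017 with edgeR, and -0.056 and -0.064 on 8 libraries. That of Abcg1 was -0.052, -0.0021 and -0.044 with those 3 settings, and -0.093 and -0.098 on 8 libraries. With a mouse left out, Abcg2 ran from -0.084 to 0.083, Abcg1 from -0.11 to 0.18 and Abcb1b from -0.28 to 0.28. Leaving out Vil-Cre 1 and Vil-Cre 5 together, chosen after seeing the data, gave 1 gene and 0 members past the threshold, -0.042 for Abcg2, -0.016 for Abcg5 and -0.031 for Abcg8. The cause of these differences was not tested. With 5 mice a group, wide intervals left larger changes in those members possible. The intervals are unadjusted and do not give the size of change that would have passed the threshold.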
